A study of Mus musculus with 8 samples.

Results

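The effect of bovine colostrum exosomes on intestinal transcripts was examined over all 8 libraries of the series, as the 4 libraries from mice given exosomes (labelled Ex and ExDSS) against the 4 from mice given none (NC and PC), for every gene and with treatment by dextran sodium sulfate (DSS) as an additive term. All mice were wild-type C57BL/6, and each group has 2 libraries labelled 6d. The Ex group had 1 mg of exosomes by gavage each day for 3 weeks and no DSS. The ExDSS group had the same exosomes for 3 weeks and then 3% DSS in its drinking water for 6 days. The PC group had buffer in place of exosomes and the same DSS, and the NC group had buffer and no DSS. The tissue label says intestinal, and region, age and sex are not given in the sources here. RNA was read from the 3' ends of polyadenylated transcripts, and the values are counts per gene. Whether both libraries of a group stem from different mice is not stated, and the p-values describe library-to-library spread that may be technical.

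Exosomes are small membrane vesicles that cells release with a cargo of proteins, lipids and RNA. Colostrum is rich in them, and after oral dosing the lining of the gut is the first tissue they meet. That lining holds absorptive enterocytes or colonocytes, goblet cells that secrete heavily glycosylated mucins, tuft and enteroendocrine cells, all sealed by tight junctions. DSS, a sulfated polysaccharide, injures this epithelium and draws neutrophils into the tissue.

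Total counts lay between 8813622 and 12308537 in 7 libraries and reached 1163147 in Ex 2, in which 53.5% of counts fell on Rn45s, the ribosomal RNA precursor (0.407% to 13.1% in the other 7). Pancreatic acinar genes held 9.68% of counts in NC 2 and 21.7% in ExDSS 1, against at most 0.285% elsewhere. Between 8760 and 16374 genes had at least 1 count in the exosome libraries and between 12683 and 16790 in the others. The difference of means was -3888 genes (exact two-sided permutation test over 8 libraries, p = 0.0857, adjusted p = 0.15 over 7 library measures, smallest p possible 0.0286). With Rn45s removed and every library then thinned to about 541286 counts, it was -2569 genes (exact permutation p = 0.0571, adjusted p = 0.15 over the same 7 measures). Of 3410 genes with at least 20 normalised CPM in each library without exosomes, 547 were under 1 CPM in Ex 2, 150 in ExDSS 1, 13 in ExDSS 2 and 0 in Ex 1. The 16 epithelial markers summed to 417 normalised CPM in Ex 2 and to 4748 to 8172 in the other 7, so the labelled tissue was visible in all libraries and faint in Ex 2. Ex 1 was the library most like one of another arm, with Pearson's r = 0.978 across genes against PC 2. Neutrophil genes summed to 2677 and 2458 normalised CPM in the libraries labelled NC, to 16.7 and 14.1 in those labelled PC, to 18.4 and 13.4 in Ex, and to 3442 and 2154 in ExDSS. The libraries labelled as free of DSS and exosomes thus carried neutrophil transcripts and those labelled DSS alone did not. Libraries are named as labelled throughout, and swapping the NC and PC names would leave both arms as they are.

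**Figure D1:**
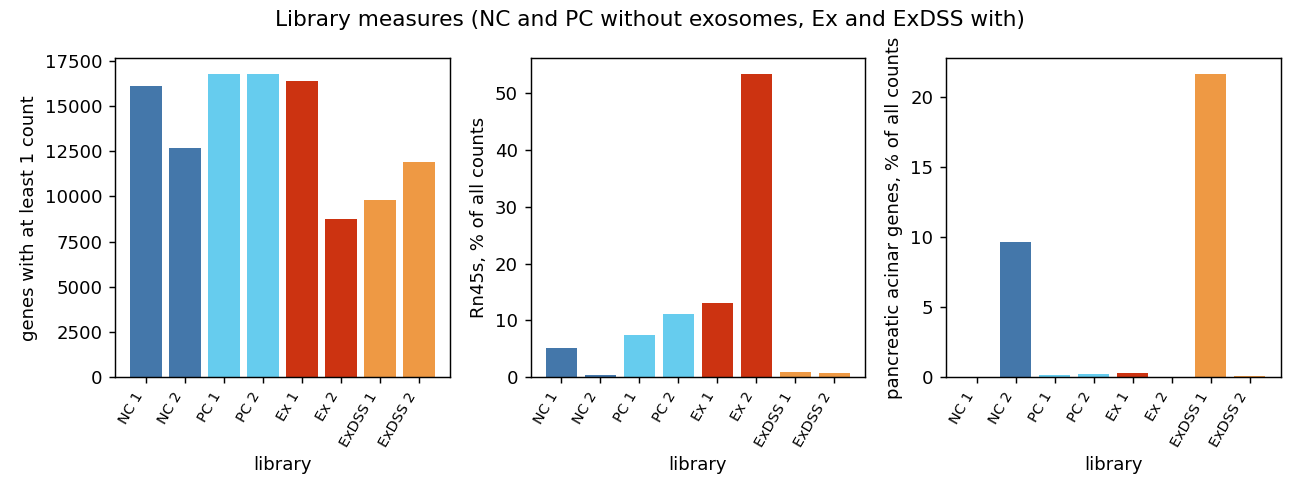
Bars give, for each of the 8 libraries, the count of genes detected (left), Rn45s as a percent of all counts (middle) and the pancreatic acinar list as a percent of all counts (right). Ex 2, ExDSS 1 and ExDSS 2 detect the fewest genes (8760, 9825 and 11874), Ex 2 alone has 53.5% of its counts on Rn45s, and acinar genes stand out in NC 2 and ExDSS 1.

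No gene passed the test for an exosome effect shared by both DSS strata. In edgeR's quasi-likelihood test (Benjamini-Hochberg adjusted), 0 of 14567 genes were called (0%), the smallest adjusted p was 1, and 255 genes had an unadjusted p under 0.05, of which 91 were higher (0.625%) and 164 lower (1.13%) with exosomes. For comparison, 5% of the genes tested is 728. The split by direction depended on the model, with 317 higher and 128 lower without the DSS term. It was 198 higher and 1067 lower for the mean of the 2 strata, fitted with 1 coefficient per group. It depended on scaling, with 171 higher and 148 lower with RLE factors and 139 and 133 with upper-quartile factors. It also depended on single libraries, with 612, 141, 162, 1695 and 134 genes in all without NC 2, PC 1, PC 2, Ex 1 and Ex 2 in turn, and 173 higher and 1522 lower without Ex 1. limma-voom also called 0 genes, with 646 at an unadjusted p under 0.05, and 0 with sample quality weights, with 361. DESeq2 called 22 genes, 19 higher and 3 lower, and had 1139 at an unadjusted p under 0.05. The 3 lower genes were H2-T3, B3gnt6 and Prkg2, and all 3 had separate arms. Of the 19 higher genes, 3 (Cyp11b2, Hoxc9 and Skp2) had separate arms and 18 had their highest level in Ex 2 or ExDSS 1. The median over all genes was -0.43 on the log2 scale, with 9828 negative and 4739 positive. That median was -0.23 with RLE factors, -0.28 with upper-quartile factors and -0.71 with library totals alone, so list medians below are given relative to it.

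Separation of the arms was counted beside the test. In 420 genes (2.88%) all 4 exosome libraries lay below all 4 others, and in 30 genes (0.206%) all lay above. The separation was narrow in most of them. The distance between the arms was counted as 2-fold or more in 69 of the lower genes (0.474%) and 3 of the higher (0.0206%). Genes with no count in a whole arm, 19 lower and 1 higher, have no fold value and were included. Ex 1 was the exosome library nearest to the other arm in 353 of the 420 and 25 of the 30. Genes lower in every exosome library had a median level of 4.86 normalised CPM, against 13.1 over all genes tested, and 67.9% of them had no count in Ex 2, against 43.1% of all genes tested. In ExDSS 1 these shares were 58.8% and 34.6%. The higher genes had a median level of 28.1 normalised CPM and were highest in Ex 2 in 18 cases and in ExDSS 1 in 9. Annotated width was alike in the 3 sets, with medians of 3019 bases (lower), 2889 (higher) and 2820 (all). With 1 library fewer to separate, the counts rise by construction. They were 59, 106, 53, 199, 129, 117 and 113 higher genes without NC 1, NC 2, PC 2, Ex 1, Ex 2, ExDSS 1 and ExDSS 2 in turn, and 1206, 2023, 654 and 835 lower genes without NC 2, Ex 1, ExDSS 1 and ExDSS 2. On thinned counts, where 8421 genes were tested, 144 (1.71%) were lower and 29 (0.344%) higher in every exosome library, so depth and the set of genes changed together. The part of missing transcripts in Ex 2 and ExDSS 1 in these counts was not tested.

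On the lower side, among genes with separate arms and a mean of at least 5 normalised CPM, the smallest p belonged to H2-T3 and B3gnt6, both known from the intestinal epithelium. H2-T3 encodes a non-classical class I molecule displayed on intestinal epithelial cells (GRCm38 chr17:36185571-36190151, minus strand). Its levels were 15.5 (NC 1), 32.7 (NC 2), 25.5 (PC 1) and 4.32 (PC 2) normalised CPM without exosomes and 0.204 (Ex 1), 0 (Ex 2), 0.275 (ExDSS 1) and 0 (ExDSS 2) with them. Every exosome library lay below every other, and the nearest pair, PC 2 and ExDSS 1, was 15.7-fold apart. The exosome libraries held 4 counts in all and the others 982, so the summed level was 140.0-fold lower (95% interval 54.5 to 515, covering counting error only). The fitted log2 fold change was -6.90 (SE 1.91), with an unadjusted p of 0.00141 and an adjusted p of 1 in edgeR's quasi-likelihood test. DESeq2 gave a log2 fold change of -6.54 and an adjusted p of 0.00371. Class I genes share sequence, so reads of close copies may have been divided between them. The class I genes H2-T23 and H2-T24, chosen after their values were seen, had log2 fold changes of 0.14 and 0.06. In bulk tissue, fewer cells of a type and less RNA per cell cannot be told apart.

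B3gnt6 encodes the glycosyltransferase that makes core 3 O-glycans on intestinal mucins (chr7:98192415-98199475, minus strand). Its levels were 7.44 (NC 1), 9.06 (NC 2), 19.7 (PC 1) and 4.95 (PC 2) normalised CPM without exosomes and 0.102 (Ex 1), 0 (Ex 2), 0 (ExDSS 1) and 0 (ExDSS 2) with them. The arms did not overlap and were 48.4-fold apart at their nearest. A sole count in Ex 1 stood against 540 counts in the libraries without exosomes, a ratio of 308 (95% counting interval 55.0 to 12185). The log2 fold change was -7.90 (SE 2.29), unadjusted p = 0.00216, adjusted p = 1 in edgeR, and adjusted p = 0.00643 in DESeq2. Neither ExDSS library held a count. A fitted fold change or interaction that rests on a group with no count, here and for the genes below, depends on the fit's prior count and is no bound.

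Prkg2, which had a mean below 5 normalised CPM and was named after its values were seen, encodes a cyclic GMP-dependent kinase of the epithelium that acts on chloride secretion. Its levels were 9.23 (NC 1), 14.3 (NC 2), 9.97 (PC 1) and 3.53 (PC 2) normalised CPM without exosomes and 0 in all 4 exosome libraries. No exosome library held a count, while the others held 471. The summed level was thus at least 89.5-fold lower, taking 3 counts over the whole arm as the floor. That floor concerns counting alone and not the spread between libraries. Its unadjusted p was 0.00165 and its adjusted p 1 in edgeR. Alpi, the intestinal alkaline phosphatase of the brush border, followed the same order at a lower level (chr1:87098002-87101606, minus strand). Its levels were 2.39 (NC 1), 8.49 (NC 2), 3.86 (PC 1) and 1.81 (PC 2) normalised CPM without exosomes and 0 in all 4 exosome libraries. Against the same floor its summed level was at least 38.2-fold lower, with an unadjusted p of 0.00537 and an adjusted p of 1 in edgeR. A count of 0 means less in Ex 2 than elsewhere. There 3 counts equal 4.47 normalised CPM, above the PC 2 level of H2-T3, Prkg2 and Alpi, while in Ex 1, ExDSS 1 and ExDSS 2 they equal 0.307, 0.412 and 0.252.

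Fabp2, the cytosolic fatty acid carrier of enterocytes, was the most abundant gene named on this side (chr3:122895072-122899506, plus strand). Its levels were 163 (NC 1), 275 (NC 2), 765 (PC 1) and 351 (PC 2) normalised CPM without exosomes and 76.5 (Ex 1), 2.98 (Ex 2), 134 (ExDSS 1) and 32.0 (ExDSS 2) with them. ExDSS 1 came close to NC 1, the lowest library without exosomes, at a distance of 1.22-fold, and Ex 2 was far below all others. The log2 fold change was -2.60 (SE 1.12), unadjusted p = 0.0301 and adjusted p = 1 in edgeR. The Fabp2 line overlaps that of 4933405D12Rik, and with no strand setting stated for the counting their reads cannot be told apart.

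Cdx, Hnf4 and GATA factors are known regulators of the intestinal epithelium. Promoters are shown for H2-T3, Alpi and Fabp2, a choice among the genes of the epithelium that were lower in every exosome library. Those of B3gnt6 and Prkg2 are not shown. Each promoter shown runs from 250 bases before to 50 bases after the annotated start. It is written 5′ to 3′ on the gene's strand, from RefSeq on GRCm38.p6. Capitals mark matches, on either strand, to the core motifs TTTATNG (Cdx; CNATAAA on the other strand) and CAAAGTCCA (Hnf4). The windows are chr17:36190102-36190401 (minus strand), chr1:87101557-87101856 (minus strand) and chr3:122894822-122895121 (plus strand).
H2-T3: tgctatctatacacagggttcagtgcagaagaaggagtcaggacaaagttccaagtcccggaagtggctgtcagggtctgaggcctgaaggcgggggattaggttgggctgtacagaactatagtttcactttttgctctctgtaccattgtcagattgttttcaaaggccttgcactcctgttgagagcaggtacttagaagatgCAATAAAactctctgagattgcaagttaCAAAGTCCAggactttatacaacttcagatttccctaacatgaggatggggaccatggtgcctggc
Alpi: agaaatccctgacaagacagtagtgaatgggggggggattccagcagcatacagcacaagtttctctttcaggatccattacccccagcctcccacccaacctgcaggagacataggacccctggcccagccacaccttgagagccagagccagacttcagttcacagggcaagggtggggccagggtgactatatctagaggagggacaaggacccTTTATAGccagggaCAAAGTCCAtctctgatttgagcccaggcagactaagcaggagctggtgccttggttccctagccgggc
Fabp2: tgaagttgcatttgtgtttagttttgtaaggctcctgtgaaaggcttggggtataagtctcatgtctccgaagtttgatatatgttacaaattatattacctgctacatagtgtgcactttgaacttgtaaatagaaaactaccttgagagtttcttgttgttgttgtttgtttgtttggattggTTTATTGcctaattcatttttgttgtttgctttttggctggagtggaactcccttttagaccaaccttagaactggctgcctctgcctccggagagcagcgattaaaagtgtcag
H2-T3 and Alpi held 1 match to each of the Cdx and Hnf4 cores, and Fabp2 held 1 to the Cdx core. None held the GATA core AGATAA in this window. Among all 32851 promoters of this length, 10.9% held the Cdx core, 0.475% the Hnf4 core and 11.2% the GATA core. Of the genes lower in every exosome library, 315 had a promoter in the table. The Cdx core stood in 16 of these (5.08%) and in 818 of 10933 tested genes (7.48%). The Hnf4 core stood in 4 (1.27%) and 53 (0.485%), and the GATA core in 28 (8.89%) and 744 (6.81%). These are matches of letters and no measure of binding.

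The other genes named on the lower side all had an adjusted p of 1 in edgeR and log2 fold changes between -5.30 and -2.61. Cyp2c65, an intestinal cytochrome P450, had 7.97 (NC 1), 9.92 (NC 2), 49.6 (PC 1) and 13.1 (PC 2) normalised CPM without exosomes and 3.17 (Ex 1), 0 (Ex 2), 0.549 (ExDSS 1) and 0.419 (ExDSS 2) with them. PC 1 was far above the other libraries, and the arms were 2.51-fold apart. Cldn15, a claudin that forms paracellular sodium channels, had 24.8 (NC 1), 46.4 (NC 2), 82.0 (PC 1) and 50.2 (PC 2) normalised CPM without exosomes and 18.2 (Ex 1), 1.49 (Ex 2), 0 (ExDSS 1) and 4.95 (ExDSS 2) with them. Ex 1 lay within 1.36-fold of NC 1, and the other 3 exosome libraries were far below. Gpr160, an orphan receptor, ranged from 7.54 to 14.5 normalised CPM without exosomes and 0 to 3.68 with them and was 2.05-fold apart. Nov, a secreted matricellular protein, ranged from 34.2 to 56.2 normalised CPM without exosomes and 0 to 18.0 with them and was 1.90-fold apart.

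Yars2, the mitochondrial tyrosyl-tRNA synthetase, ranged from 9.83 to 41.8 normalised CPM without exosomes and 0 to 7.46 with them. Ctxn3 ranged from 10.8 to 23.2 normalised CPM without exosomes and 0 to 4.70 with them, and Tubal3, an alpha-tubulin-like gene, from 10.9 to 30.9 normalised CPM without exosomes and 0 to 7.46 with them. In both, Ex 1 held nearly all of the exosome signal. Ggcx, the vitamin K-dependent gamma-glutamyl carboxylase, ranged from 4.12 to 26.4 normalised CPM without exosomes and 0 to 4.09 with them, and Nat9 from 5.90 to 28.1 normalised CPM without exosomes and 0 to 5.52 with them. Their arms were 1.01-fold and 1.07-fold apart, a distance smaller than the spread within either arm. Separate arms fix the direction in both DSS strata. Neither ExDSS library held a count of Ctxn3, Ggcx or Nat9.

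**Figure D2:**
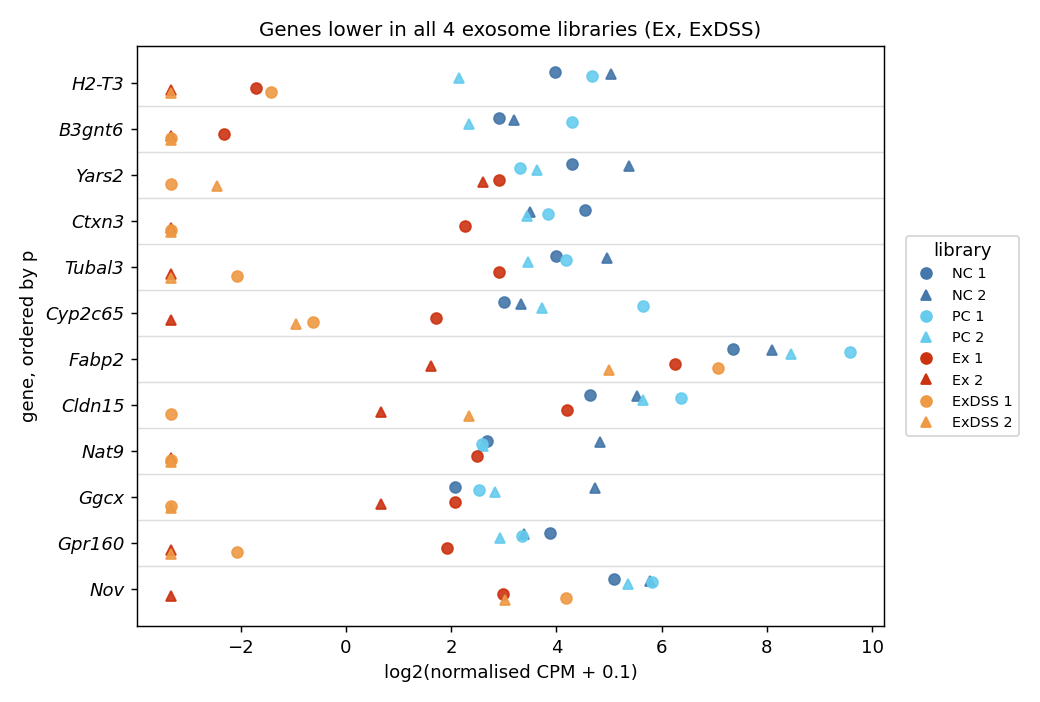
Each row is 1 of the 12 genes named as lower, each point 1 library, and the axis is log2 of normalised CPM plus 0.1, so that a count of 0 sits at the left edge. The exosome libraries (red and orange) lie left of the others (blue) in every row, by 48.4-fold for B3gnt6 and 15.7-fold for H2-T3, and Ex 1 sits close to the other arm in Nat9 and Ggcx.

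Of the lists of epithelial genes, goblet cell and xenobiotic metabolism genes had the lowest medians relative to all genes, while colonocyte (0.01), tuft cell (0.01) and small intestinal enterocyte genes (0.17) stood at or above the genes as a whole. For the goblet cell and mucus list, 23 of 25 genes were tested, 0 were called, 20 had a lower and 3 a higher level with exosomes, and the median was -1.46 (-1.03 relative to all genes). In 6 members (26.1%, against 2.88% of all genes tested) every exosome library was below every other: B3gnt6, Gcnt3, Muc4, Creb3l4, Agr2 and C1galt1. Gcnt3, which makes core 2 and core 4 O-glycans, had 188 (NC 1), 162 (NC 2), 213 (PC 1) and 106 (PC 2) normalised CPM without exosomes and 56.8 (Ex 1), 0 (Ex 2), 50.8 (ExDSS 1) and 49.98 (ExDSS 2) with them. Ex 2 had no count and the other 3 exosome libraries lay together at about the same level, 1.86-fold below PC 2. Muc2, the main secreted mucin, had 2349 (NC 1), 1388 (NC 2), 2942 (PC 1) and 2041 (PC 2) normalised CPM without exosomes and 573 (Ex 1), 35.8 (Ex 2), 647 (ExDSS 1) and 1494 (ExDSS 2) with them. Here the arms overlapped, since ExDSS 2 exceeded NC 2, and the log2 fold change was -1.92 (SE 1.21) with an unadjusted p of 0.126 in edgeR. Clca1 and Tff3 are abundant goblet cell secretory products, chosen after their values were seen. Their log2 fold changes were 0.49 and 0.39, with their highest levels in ExDSS 2. The summed list ranged from 17266 to 30645 normalised CPM without exosomes and 280.2 to 58016 with them. Over the fits without 1 library its relative median ran from -1.49 to -0.48, and without Ex 2, ExDSS 1 and NC 2 it was -0.32. Epithelial markers were also lowest in Ex 2, and their part in the list's median was not tested.

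All 23 tested genes of the xenobiotic metabolism list (30 in all) had a negative fold change, 0 were called, and 2 (8.7%, against 2.88%) had exosome libraries wholly below the others. Its relative median was -0.95, with a range of -1.69 to -0.53 over the fits without 1 library and -0.36 without Ex 2, ExDSS 1 and NC 2. Cyp2c55, a colonic P450, had 108 (NC 1), 457 (NC 2), 583 (PC 1) and 287 (PC 2) normalised CPM without exosomes and 181 (Ex 1), 0 (Ex 2), 57.9 (ExDSS 1) and 26.8 (ExDSS 2) with them. Ex 1 exceeded NC 1, so the arms overlapped, and the log2 fold change was -2.50 (SE 1.29). Ugt2b36, a glucuronosyltransferase, ranged from 0 to 2.40 normalised CPM without exosomes and 0 to 0.102 with them, near the floor in every library. In the small intestinal enterocyte list, 20 of 29 genes were tested and 3 (15%, against the same 2.88%) were lower in every exosome library. Alpi and Fabp2 were among them, yet 9 members of the list were positive and 11 negative. The third of its genes by p, the fructose transporter Slc2a5, ranged from 1.06 to 8.11 normalised CPM without exosomes and 0 to 2.15 with them, and its arms overlapped. In the colonocyte list 2 of 29 (6.9%, against the same 2.88%) were lower in every exosome library, 12 positive and 17 negative. Ceacam10, 1 of them, ranged from 65.4 to 208 normalised CPM without exosomes and 0 to 51.9 with them.

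Tight and adherens junction genes had 0 of 30 members called, 24 negative and 6 positive fold changes and a relative median of -0.17. Cldn15 and Cldn2, a claudin of leaky epithelia, were among 3 members below in every exosome library (10%, against 2.88% of all genes tested). Cldn2 ranged from 59.2 to 111 normalised CPM without exosomes and 4.39 to 57.9 with them. Tjp1, the scaffold protein ZO-1, had 14.7 (NC 1), 0.0954 (NC 2), 10.1 (PC 1) and 10.4 (PC 2) normalised CPM without exosomes and 19.2 (Ex 1), 159 (Ex 2), 396 (ExDSS 1) and 10.8 (ExDSS 2) with them. Its high values came from Ex 2 and ExDSS 1, ExDSS 2 lay below NC 1, and the log2 fold change was 3.95 (SE 1.35) with an unadjusted p of 0.00748 in edgeR. Among tuft cell genes 2 of 14 (14.3%, against the same 2.88%) were lower in every exosome library, Avil and Rgs13. Avil, which encodes the actin-binding protein advillin, had 3.52 (NC 1), 11.8 (NC 2), 3.71 (PC 1) and 2.98 (PC 2) normalised CPM without exosomes and 1.33 (Ex 1), 0 (Ex 2), 0 (ExDSS 1) and 0.0839 (ExDSS 2) with them. The NC 1, PC 1 and PC 2 levels of Avil lay below that of 3 counts in Ex 2 (4.47). Among enteroendocrine genes 2 of 22 (9.09%, against the same 2.88%) were lower in every exosome library. They were the transcription factor Neurod1 and the prohormone convertase Pcsk1, each detected with exosomes in Ex 1 alone. The 60 respiratory chain genes had 55 negative members and 0 called, but their median stood at -0.09 relative to all genes. Of the 16 epithelial markers 15 were negative, with a relative median of -0.17. Vil1, the brush border protein villin, was the 1 marker below in every exosome library (6.25%, against the same 2.88%). It ranged from 82.1 to 128 normalised CPM without exosomes and 1.49 to 77.2 with them.

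On the higher side, 12 genes with separate arms met the rule for naming, of which 11 are described, with log2 fold changes between 2.11 and 5.33, and all had an adjusted p of 1 in edgeR. Skp2, the substrate receptor of a ubiquitin ligase that acts on cell cycle inhibitors, had 1.93 (NC 1), 0 (NC 2), 3.35 (PC 1) and 2.43 (PC 2) normalised CPM without exosomes and 3.58 (Ex 1), 121 (Ex 2), 112 (ExDSS 1) and 9.31 (ExDSS 2) with them. Ex 2 and ExDSS 1 were about alike and far above, while Ex 1 lay 1.07-fold above PC 1. The log2 fold change was 5.16 (SE 1.54), with an unadjusted p of 0.00265 and an adjusted p of 1 in edgeR and an adjusted p of 0.0162 in DESeq2. Hoxc9, a homeobox gene of posterior position, had 0.531 (NC 1), 0.0954 (NC 2), 0.437 (PC 1) and 0.393 (PC 2) normalised CPM without exosomes and 0.613 (Ex 1), 55.1 (Ex 2), 13.7 (ExDSS 1) and 3.19 (ExDSS 2) with them. Ex 2 was again the highest and Ex 1 the lowest of its arm, and DESeq2 gave an adjusted p of 0.0084.

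Mbd5, a methyl-CpG-binding domain protein, was the named higher gene with the widest separation. Its levels were 1.39 (NC 1), 0 (NC 2), 1.24 (PC 1) and 1.57 (PC 2) normalised CPM without exosomes and 5.21 (Ex 1), 7.45 (Ex 2), 88.4 (ExDSS 1) and 7.88 (ExDSS 2) with them. ExDSS 1 stood apart from the other 3 exosome libraries, which lay close together, and these were still 3.32-fold above PC 2. The log2 fold change was 4.13 (SE 1.61) with an unadjusted p of 0.0170 and an adjusted p of 1 in edgeR. Below the level required for naming, and chosen after their values were seen, Rprl2 and Cyp11b2 were the other 2 higher genes counted as 2-fold apart. Rprl2, a gene for an RNase P-like RNA, had 0.0664 (NC 1), 0 (NC 2), 0 (PC 1) and 0 (PC 2) normalised CPM without exosomes and 0.307 (Ex 1), 2.98 (Ex 2), 1.37 (ExDSS 1) and 1.84 (ExDSS 2) with them. Cyp11b2, the aldosterone synthase of the adrenal gland, was included without a fold value, as it had no count in any library without exosomes. Its levels with them were 0.102, 2.98, 2.47 and 22.9 normalised CPM in Ex 1, Ex 2, ExDSS 1 and ExDSS 2. ExDSS 2 held 273 of 294 counts, and the Ex 1 and Ex 2 levels lay below those of 3 counts (0.307 and 4.47). The summed level was at least 172-fold higher, against a floor of 3 counts over the arm, which concerns counting alone.

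In the other 8 genes described, Ex 2 or ExDSS 1 was the highest library. Pcbp4, a poly(C)-binding protein, had 4.65 (NC 1), 2.96 (NC 2), 10.8 (PC 1) and 15.1 (PC 2) normalised CPM without exosomes and 18.1 (Ex 1), 1350.3 (Ex 2), 18.4 (ExDSS 1) and 24.7 (ExDSS 2) with them. Ex 2 was far above all other libraries, and the remaining 3 exosome libraries lay at least 1.20-fold above PC 2. Adhfe1, an iron-containing alcohol dehydrogenase, ranged from 0.191 to 2.72 normalised CPM without exosomes and 2.98 to 139.8 with them and was highest in ExDSS 1. Star, which moves cholesterol into mitochondria for steroid synthesis, had 2.06 (NC 1), 0 (NC 2), 2.33 (PC 1) and 2.20 (PC 2) normalised CPM without exosomes and 2.45 (Ex 1), 7.45 (Ex 2), 57.7 (ExDSS 1) and 30.9 (ExDSS 2) with them, with Ex 1 within 1.05-fold of PC 1. Ewsr1, an RNA-binding protein, ranged from 17.3 to 21.8 normalised CPM without exosomes and 22.0 to 371 with them. Gjc1, a gap junction connexin, ranged from 8.11 to 9.63 normalised CPM without exosomes and 10.5 to 136 with them. In both the arms were less than 1.3-fold apart. Cdk5, a cyclin-dependent kinase, ranged from 10.9 to 13.0 normalised CPM without exosomes and 15.9 to 119 with them. Kif9, a kinesin, ranged from 0 to 2.51 normalised CPM without exosomes and 2.56 to 43.2 with them. Pcmt1, a protein repair methyltransferase, ranged from 7.06 to 22.9 normalised CPM without exosomes and 27.6 to 225 with them. Over all 12 genes the highest library was Ex 2 in 9 and ExDSS 1 in 3, and in 11 the arms were less than 1.3-fold apart. Rn45s share and gene detection set Ex 2 apart and acinar genes ExDSS 1. The part of these library measures was not tested.

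**Figure D3:**
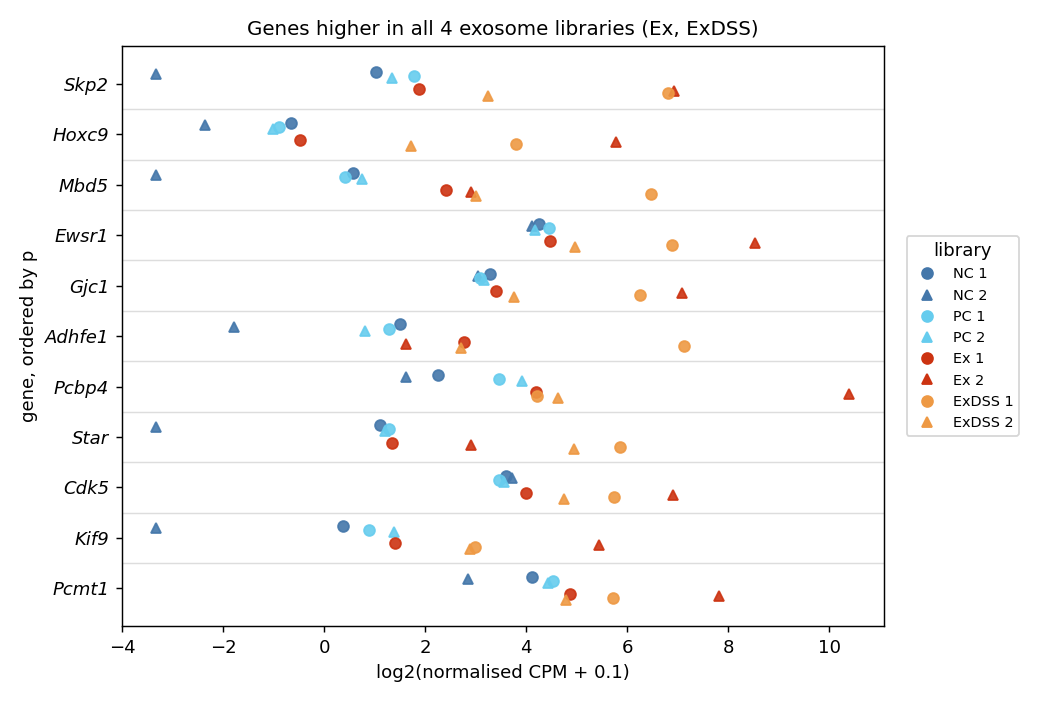
Each row is 1 of 11 genes named as higher, each point 1 library, and the axis is log2 of normalised CPM plus 0.1. Ex 2 (red triangles) or ExDSS 1 (orange circles) is the rightmost point in every row, and Ex 1 (red circles) sits beside the libraries without exosomes in most rows, with a 3.32-fold distance between the arms in Mbd5 and 1.01-fold in Ewsr1.

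No list had a called member on the higher side. Medians stood above that of all genes in 25 of the 38 lists. The pancreatic acinar list stood highest, at 1.47 (-7.53 to 10.48 over the fits without 1 library), with 25 of 25 genes positive, 0 separate arms and the shares of counts in NC 2 and ExDSS 1 given above. Mast cell genes stood at 1.12 (-0.31 to 2.94), with 5 of 8 positive. All 16 adipocyte genes had positive fold changes, with a relative median of 1.33 (0.32 to 2.12 over the fits without 1 library) and 0 separate arms. Retn, the adipose hormone resistin, had 2.66 (NC 1), 6.39 (NC 2), 20.6 (PC 1) and 17.4 (PC 2) normalised CPM without exosomes and 110.0 (Ex 1), 0 (Ex 2), 18.7 (ExDSS 1) and 405 (ExDSS 2) with them. Ex 1 and ExDSS 2 were high, Ex 2 had no count, and ExDSS 1 lay below PC 1. Its log2 fold change was 3.55 (SE 1.29) with an unadjusted p of 0.0114 in edgeR. Cfd, the adipose protease adipsin, had 90.1 (NC 1), 6.20 (NC 2), 89.5 (PC 1) and 131 (PC 2) normalised CPM without exosomes and 427 (Ex 1), 1.49 (Ex 2), 128 (ExDSS 1) and 1615 (ExDSS 2) with them, again highest in ExDSS 2 and Ex 1. The summed adipocyte list was 425 (NC 1), 202 (NC 2), 623 (PC 1) and 727 (PC 2) normalised CPM without exosomes and 2410 (Ex 1), 53.7 (Ex 2), 1022 (ExDSS 1) and 2769 (ExDSS 2) with them. Thus 3 exosome libraries were above all others and Ex 2 below them. The smooth muscle list, another tissue of the gut wall, summed to 8003 to 14946 normalised CPM without exosomes and 2253 to 12912 with them. Of the defining adipocyte markers, Adipoq had no count in Ex 2, Cidec none in Ex 2 and ExDSS 1, and Plin1 was detected with exosomes in Ex 1 alone. The part of fat tissue in other results was not tested.

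Erythroid genes had a relative median of 1.17 with 8 of 9 positive, and Hbb-bs, a beta-globin with close copies that may share its reads, ranged from 215 to 332 normalised CPM without exosomes and 4.47 to 1918 with them, with the top value in ExDSS 2. The position list of Hox and regional factors had 18 of 25 positive and a relative median of 0.80, which ran from -0.44 to 1.95 over the fits without 1 library and so changed sign. Its member with the smallest p was Gata4, a factor of the proximal small intestine, at 0 to 0.0785 normalised CPM without exosomes and 0 to 7.55 with them. Cytosolic ribosomal protein genes had a relative median of 0.32 and 29 of 78 positive. Immediate early and heat shock genes stood at 0.46, with 13 of 24 positive. Among them Hsph1, a heat shock protein, had 29.7 (NC 1), 5.06 (NC 2), 15.9 (PC 1) and 17.2 (PC 2) normalised CPM without exosomes and 11.7 (Ex 1), 894 (Ex 2), 30.5 (ExDSS 1) and 16.4 (ExDSS 2) with them, so Ex 2 alone was high.

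The lists closest to the study's agent showed no called gene. For vesicle formation and uptake, 33 of 33 genes were tested, 13 positive and 20 negative, with 0 separate arms and a relative median of 0.28. Rab27a, a GTPase that docks secretory vesicles, had 20.6 (NC 1), 3.34 (NC 2), 22.6 (PC 1) and 30.1 (PC 2) normalised CPM without exosomes and 21.5 (Ex 1), 0 (Ex 2), 0 (ExDSS 1) and 0.419 (ExDSS 2) with them. It was nearly absent from 3 exosome libraries, but Ex 1 was within the range of the other arm. Cltc, the clathrin heavy chain, ranged from 159 to 267 normalised CPM without exosomes and 148 to 1774 with them, with Ex 2 the highest. For the TGF-beta pathway, whose ligands are present in colostrum, 30 of 31 genes were tested, 13 positive and 17 negative, with a relative median of 0.21. Inhba, an activin subunit, had 31.5 (NC 1), 23.5 (NC 2), 1.24 (PC 1) and 2.51 (PC 2) normalised CPM without exosomes and 3.17 (Ex 1), 118 (Ex 2), 18.3 (ExDSS 1) and 41.9 (ExDSS 2) with them, and the arms overlapped. Of 9 milk protein genes 2 passed the low-count filter. Glycam1 ranged from 0 to 18.7 normalised CPM without exosomes and 0 to 16.9 with them, and Btn1a1 from 0 to 1.31 normalised CPM without exosomes and 0 to 0.549 with them.

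**Figure D4:**
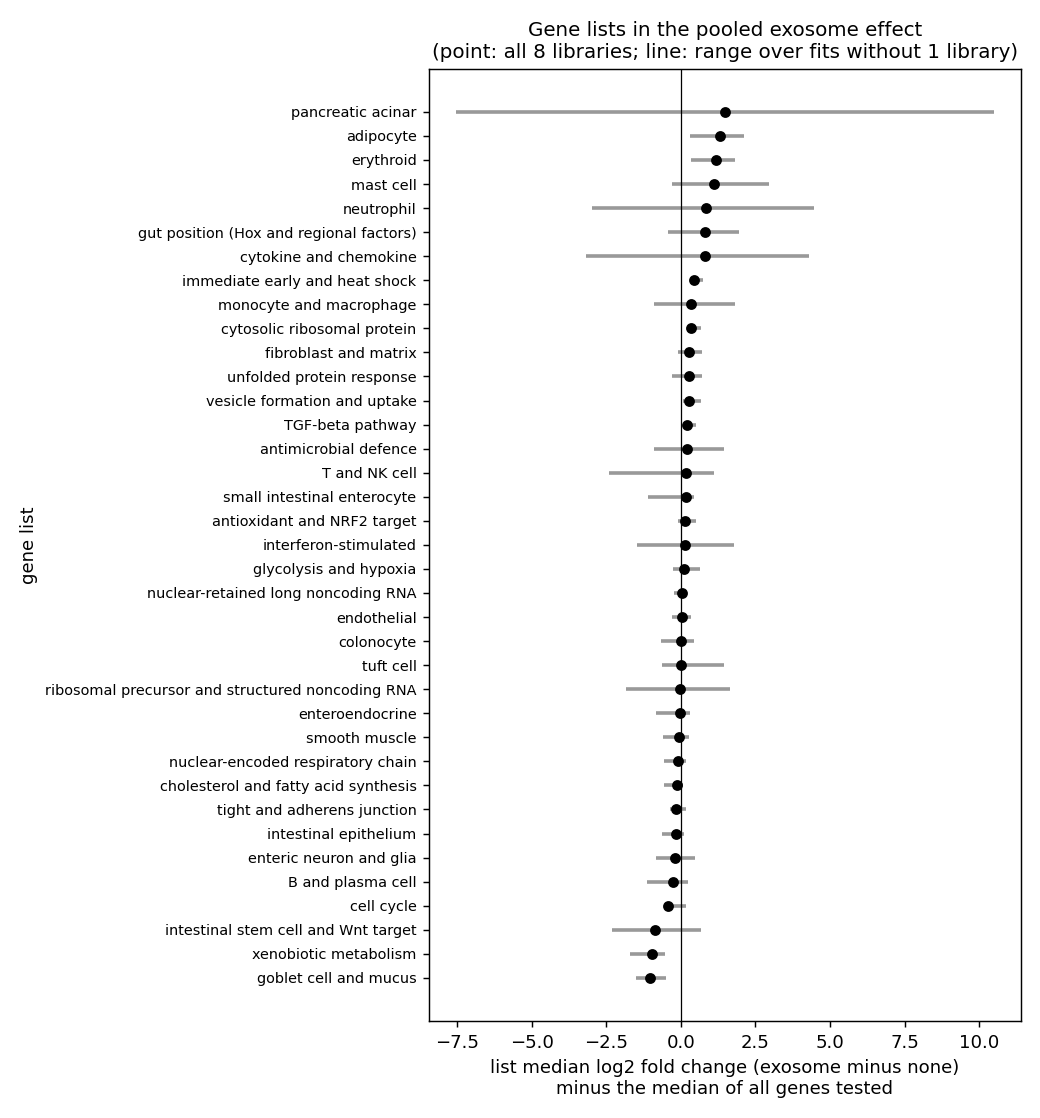
Each point is the median log2 fold change (exosome minus none) of a gene list minus the median of all genes tested, and each line its range over the fits that leave out 1 library. Goblet cell (-1.03) and xenobiotic (-0.95) lists lie lowest with lines that stay below 0. Adipocyte (1.33) and erythroid (1.17) lines stay above 0. So do those of the cytosolic ribosomal protein (0.32), immediate early and heat shock (0.46), TGF-beta (0.21) and vesicle (0.28) lists. The acinar and neutrophil lines cross 0 widely, and the milk protein list is not drawn.

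With the groups as labelled, the fitted fold change often differed in sign between the 2 strata. Both strata rest on the NC and PC labels, which the neutrophil genes do not follow. As no gene was called in either stratum in edgeR, a sign may be that of noise. Ex was compared with NC for the stratum without DSS and ExDSS with PC for the stratum with it, in a model with 1 coefficient per group. In edgeR 0 genes were called in each (0%), with 774 genes at an unadjusted p under 0.05 without DSS and 2763 with it. These counts rested on single libraries. Without DSS the count was 1237, 417, 394, 391, 3984 and 487 without NC 1, NC 2, PC 1, PC 2, Ex 1 and Ex 2 in turn, and with DSS it was 615 and 621 without PC 1 and PC 2. The signs of the fold changes were opposite in 9125 of 14567 genes (62.6%) and alike in 5442 (37.4%), of which 3865 were lower and 1577 higher in both. The difference itself, the interaction of exosomes and DSS, was called for 42 genes (0.288%) at an adjusted p under 0.05 in edgeR's quasi-likelihood test, 38 positive (0.261%) and 4 negative (0.0275%). All 38 had a negative difference without DSS and a positive one with it, and the 4 had the reverse order. The pooled effect of the 42 had an unadjusted p of at least 0.371.

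Among the 38 were genes of the neutrophil and cytokine lists. S100a8, a subunit of calprotectin, had 825 (NC 1), 792 (NC 2), 0.291 (PC 1) and 0.628 (PC 2) normalised CPM without exosomes and 1.12 (Ex 1), 0 (Ex 2), 1171 (ExDSS 1) and 559 (ExDSS 2) with them. NC and ExDSS were high, and PC and Ex were near 0. The log2 difference between the strata was 20.75 (adjusted p = 0.00415, edgeR), made of -9.91 without DSS and 10.84 with it. The pooled log2 fold change was 0.28. S100a9, its partner, had the same order, with 0.510 to 1144 normalised CPM without exosomes and 3.17 to 1427 with them and an interaction of 19.07 (adjusted p = 0.00415, edgeR). Il1b, a cytokine of inflamed tissue, had 734 (NC 1), 437 (NC 2), 2.98 (PC 1) and 1.81 (PC 2) normalised CPM without exosomes and 1.84 (Ex 1), 5.96 (Ex 2), 764 (ExDSS 1) and 463 (ExDSS 2) with them, and its interaction was 15.38 (adjusted p = 0.0092, edgeR). Cxcl10, Serpina3f and Chil3 followed with 16.68, 15.66 and 18.10 on the log2 scale, and again NC and ExDSS were high and PC and Ex low. Of 19 neutrophil genes tested, 6 were called in the interaction (against 0.288% of all genes) and their summed levels are given above. Of 24 cytokine and chemokine genes, 5 were called. Since NC is the labelled control without DSS, these interactions cannot be told apart from a swap of the NC and PC labels. With those labels swapped in the DSS term, the pooled exosome effect still had 0 called genes, with 153 higher and 147 lower at an unadjusted p under 0.05 in edgeR.

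On the negative side Bbc3, the pro-apoptotic protein Puma, had 1.53 (NC 1), 6.77 (NC 2), 6.26 (PC 1) and 6.68 (PC 2) normalised CPM without exosomes and 5.01 (Ex 1), 951 (Ex 2), 0 (ExDSS 1) and 0 (ExDSS 2) with them. Ex 2 alone was high, and both ExDSS libraries had no count. Its interaction was -15.89 (adjusted p = 0.0396, edgeR). Aar2, a splicing factor, followed the same order at -14.62 (adjusted p = 0.0404, edgeR), with 328 normalised CPM in Ex 2 and 2.67 to 6.75 in the libraries of NC, PC and Ex 1. Kif20b, a mitotic kinesin, had 28.6 (NC 1), 8.59 (NC 2), 75.5 (PC 1) and 46.1 (PC 2) normalised CPM without exosomes and 54.8 (Ex 1), 83.5 (Ex 2), 0 (ExDSS 1) and 0.0839 (ExDSS 2) with them. It was nearly absent from ExDSS alone, with an interaction of -11.85 (adjusted p = 0.0396, edgeR). Snora30, Tnni1 and St3gal6 had interactions of -17.69, -18.42 and -15.74 and did not pass (adjusted p = 0.0537 each, edgeR). The count of 42 was 0, 0, 1, 1663, 7, 14 and 23 without NC 1, NC 2, PC 1, Ex 1, Ex 2, ExDSS 1 and ExDSS 2 in turn. Without Ex 1 the stratum without DSS had 1596 calls, with the lone Ex 2 assumed to vary like the other groups.

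**Figure D5:**
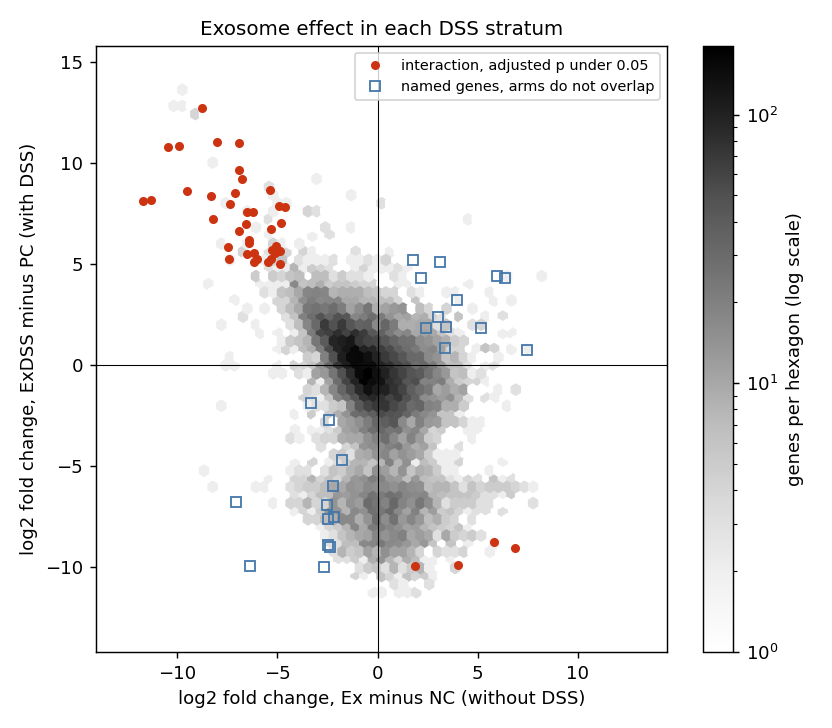
Each hexagon counts genes by their log2 fold change Ex minus NC (horizontal) and ExDSS minus PC (vertical), with darker hexagons for more genes on a log scale. The 42 genes called in the interaction (red) lie in the upper left (38) and lower right (4), and the 24 named genes with separate arms (blue squares) lie in the upper right or lower left, where separate arms place them.

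For comparison, the DSS coefficient of the same additive fit also called 0 genes in edgeR (0%), with 80 at an unadjusted p under 0.05. This coefficient rests on the NC and PC labels, which the neutrophil genes do not follow. In limma-voom with quality weights it called 230 genes, with 1575 at an unadjusted p under 0.05, against 0 and 361 for the exosome coefficient. Within the genes named for the pooled effect, the interaction was smallest for H2-T3 (0.29, unadjusted p = 0.943 in edgeR) and Fabp2 (-0.32, unadjusted p = 0.874). The log2 difference was -7.05 without DSS and -6.76 with it for H2-T3, and -2.43 without DSS and -2.75 with it for Fabp2. It was largest for Ctxn3 (-7.32, unadjusted p = 0.0438, adjusted p = 0.253 in edgeR) and Pcbp4 (-6.75, unadjusted p = 0.00631, adjusted p = 0.162), neither of which passed. Ctxn3 had no count in ExDSS.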

How the data were processed

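RNA of mouse intestine was measured in 8 libraries, 2 in each of 4 groups, made with the QuantSeq 3' kit per the labels' protocols. The deposited table holds raw counts per gene made by the authors. The submitters' processing notes name Bowtie2, bedtools, edgeR and the build mm9, while versions, strand and molecular identifiers are not stated in the sources here. Its coordinates overlap the GRCm38 gene of the same name in 22071 of 22139 matched lines (99.69%) and are given as GRCm38. The table has 23282 lines, of which 83 carry a repeated name, 27 a date for a name (0.135% of counts) and 4764 no count. Of 24 genes named for the pooled effect, 6 overlap another line (Skp2, Adhfe1, Pcbp4, Pcmt1, Cyp2c65 and Fabp2), so their reads may be shared. Among genes named for the interaction, Il1b, Cxcl10, Serpina3f, Kif20b and Snora30 also overlap another line. The Serpina3f line lies within that of Serpina3g, which was called in the interaction as well.

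Counts were scaled by TMM factors (normalised CPM), filtered with filterByExpr (minimum count 10, total 15, 2 libraries) to 14567 genes and tested with the robust quasi-likelihood F test of edgeR 4.0.16 (R 4.3.3) in an additive model of DSS and exosomes (5 residual degrees of freedom) and, for strata and interaction, in a model with 1 coefficient per group (4). Adjusted p-values are Benjamini-Hochberg over all genes, called under 0.05. The SE given is derived from the fold change and F (their ratio, with the root of F), and was not fitted. Arms are separate where all 4 exosome libraries lie above or below the other 4. limma 3.58.1 and DESeq2 1.42.0 (1130 adjusted p-values not given) were alternatives, beside other scalings, filters, thinning, a replicate block and leaving out libraries; a fit without Ex 2, ExDSS 1 and NC 2, and leaving out libraries for the separate arms and list counts, were chosen after seeing the data. The scripts were tested on simulated data. Total counts of 1163147 to 12308537 put 3 counts at 0.199 to 0.412 normalised CPM in 7 libraries and at 4.47 in Ex 2.

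Members, the 38 gene lists (1003 genes) and the rules were chosen with earlier results of these data known. Named genes are, in each direction of the pooled effect, the 12 with the smallest p among genes with a mean of at least 5 normalised CPM and separate arms (as fewer than 5 were called), the 6 with the smallest p in each direction of the interaction at that mean, and the 3 list members with the smallest p, without gene-model placeholders, receptor segments and repeated names. For 1 gene named as higher and 1 colonocyte gene, values are not reported here. Replicate numbers are shared by the groups, but the labels do not say that they pair libraries.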

Additional observations from a re-analysis of the deposited data

Results flagged for a closer look

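Among 58 sets of 4 libraries checked (5 library measures and 24 genes in each arm), 17 held a library far from the other 3 of its arm by Dixon's criterion. For normally spread values chance meets it in about 1 set in 20. The 17 cannot be set against that rate, as the 24 genes were picked for separate arms in these same libraries. In B3gnt6, Ctxn3 and Nat9 only Ex 1 held counts with exosomes, which meets the criterion by construction. In the exosome arm ExDSS 1 stood apart in its share of acinar genes (21.7%), in Mbd5 (88.4 normalised CPM) and in Adhfe1 (139.8 normalised CPM). Ex 2 stood apart in Pcbp4 (1350.3 normalised CPM), Kif9 (43.2) and Pcmt1 (225). Ex 1 stood apart, toward the other arm, in B3gnt6 (0.102 normalised CPM), Ctxn3 (4.70), Tubal3 (7.46), Nat9 (5.52) and Gpr160 (3.68). In the arm without exosomes NC 2 stood apart in genes detected (12683), in its share of acinar genes (9.68%), in Star (0 normalised CPM), Nat9 (28.1) and Ggcx (26.4), and PC 1 in Cyp2c65 (49.6).

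With the groups as labelled, the fitted exosome effect differed between the DSS strata in 9 named genes (interaction term, adjusted p under 0.05 in edgeR). The log2 effect with DSS minus that without it was 20.75 for S100a8, 19.07 for S100a9, 15.38 for Il1b, 16.68 for Cxcl10, 15.66 for Serpina3f, 18.10 for Chil3, -15.89 for Bbc3, -11.85 for Kif20b and -14.62 for Aar2. In the 6 positive genes both NC and both ExDSS libraries were high, which cannot be told apart from a swap of the NC and PC labels. In Bbc3 and Aar2 the high value was that of Ex 2 alone, and both ExDSS libraries had no count.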

How the results depend on the processing

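The pooled exosome effect had 0 called genes under every setting run except DESeq2 (22, of which 19 higher and 3 lower) and the fit without NC 2 (range 0 to 2 over the fits without 1 library; the 2 were Rmrp and Acsm5, both higher, and 0 were lower in each of these fits). DESeq2 called 337 genes for Ex against NC, 1488 for ExDSS against PC, 1616 in the interaction and 8 for DSS. Without a low-count filter these counts were 55, 132 and 350 for the strata and the interaction. limma-voom called 1160 for ExDSS against PC and 327 in the interaction, and with quality weights 1058, 374 and 230 for DSS. The interaction had 67 with RLE factors, 6 with library totals and 25 at 5 CPM or more in 4 libraries. The causes were not tested. Without 1 library the ranges were 0 to 1596 (Ex against NC), 0 to 6 (ExDSS against PC) and 0 to 1663 (interaction).

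Genes higher in every exosome library numbered 55 with RLE factors, 50 with upper-quartile factors, 8 with library totals, 44 to 199 without 1 library and 1175 without Ex 2, ExDSS 1 and NC 2. Genes lower numbered 208 with the 5 CPM filter, 144 on thinned counts, 517 to 2023 without 1 library and 2147 without those 3. Fewer libraries and fewer genes move these counts by construction. The exosome minus none difference in Rn45s share ranged from -1.12 (without Ex 2) to 16.5 percentage points, against 11.03 over all libraries. That in acinar share ranged from -2.37 (without ExDSS 1) to 5.41, against 3.02. With the replicate number as a block the pooled effect had 0 calls, ExDSS against PC 41 and the interaction 161. The labels do not say that the numbers pair libraries, and the deviations of libraries of 1 number correlated across genes between -0.201 and 0.0543 over the 6 pairs of groups. Of the named genes' effects, 557 values under alternatives kept their direction and their side of the threshold, and 4 passed it in DESeq2 alone (Skp2, Hoxc9, H2-T3 and B3gnt6). The genes were picked for separate arms in these same libraries, so the kept direction was largely fixed by that choice. None was called in the main fit, so the kept side is that of genes not called. Sizes moved, with log2 fold changes of 0.45 to 3.24 for Ewsr1 and -7.86 to -6.05 for H2-T3. Of the list medians, 57 of 569 moved by more than the residual standard deviation, over libraries, of the list's mean log2 of normalised CPM plus 1. That yardstick is wide where libraries differ, so the count is no measure of stable medians. Over the fits without 1 library the relative median ran from -2.99 to 4.46 for neutrophil and from -7.53 to 10.48 for acinar genes. For goblet cell genes it ran from -1.49 to -0.48.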

Other observations

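Lists of the crypt had lower medians than all genes in the pooled effect. Stem cell and Wnt target genes stood at -0.86 relative to all genes, with 17 of 21 negative and 0 called, but the range over the fits without 1 library was -2.30 to 0.67. Nkd1, an inhibitor of Wnt signalling, had 23.2 (NC 1), 18.7 (NC 2), 13.8 (PC 1) and 11.8 (PC 2) normalised CPM without exosomes and 12.8 (Ex 1), 2.98 (Ex 2), 0 (ExDSS 1) and 0.587 (ExDSS 2) with them. Ex 1 lay within the range of the other arm and the other 3 exosome libraries lay below it. Cell cycle genes stood at -0.44 (-0.57 to 0.18), with 27 of 35 negative. Tpx2, a spindle factor, ranged from 4.96 to 30.6 normalised CPM without exosomes and 16.6 to 185 with them and was highest in Ex 2.

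Among immune lists, 0 genes were called in the pooled effect, and over all genes tested 67.5% had a negative fold change. Of the B and plasma cell genes 15 of 17 were negative, with a relative median of -0.25. The T and NK cell list had 10 of 17 negative (0.17), monocyte and macrophage genes 15 of 24 (0.33), neutrophil genes 6 of 19 (0.84), cytokine and chemokine genes 10 of 24 (0.80) and mast cell genes 3 of 8 (1.12). Il7r, the receptor of a T cell survival cytokine, had 7.04 (NC 1), 4.29 (NC 2), 2.26 (PC 1) and 2.36 (PC 2) normalised CPM without exosomes and 2.25 (Ex 1), 0 (Ex 2), 0 (ExDSS 1) and 0 (ExDSS 2) with them. Ex 1 was just below PC 1, and the other 3 exosome libraries had no count. Vegfa, the endothelial growth factor of the hypoxia list, had 12.9 (NC 1), 9.54 (NC 2), 15.2 (PC 1) and 18.9 (PC 2) normalised CPM without exosomes and 18.4 (Ex 1), 124 (Ex 2), 128 (ExDSS 1) and 28.7 (ExDSS 2) with them. Ex 2 and ExDSS 1 were high and Ex 1 was below PC 2, with a log2 fold change of 2.42 (SE 1.08). Thbs1, a matrix glycoprotein, ranged from 6.68 to 32.8 normalised CPM without exosomes and 4.40 to 169.9 with them with its highest values in Ex 2 and ExDSS 1, and Nefl, a neurofilament protein, from 0 to 3.64 normalised CPM without exosomes and 0 to 124 with them with its highest values in the same libraries.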
